A study of Mus musculus with 2 samples.

Results

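The genes described here make, load and regulate MHC class I molecules: the heavy chains H2-K1 and H2-D1, their shared light chain B2m, the peptide transporter Tap1 and Tap2, the bridging chaperone Tapbp, the immunoproteasome subunits Psmb8 and Psmb9, the trimming peptidase Erap1 and the transcriptional activator Nlrc5. They were taken by gene symbol from the deposited annotation, and each of the 10 symbols matched 1 of the 55536 annotated genes. The material was mouse bone marrow-derived macrophages (BMDM), primary cells of strain C57BL/6J grown from marrow precursors, treated with Lipid A at 100 ng/ml for 30 min. Lipid A is the part of bacterial lipopolysaccharide that Toll-like receptor 4 senses. RNA of the nucleoplasmic fraction, the soluble part of the nucleus, was depleted of ribosomal RNA and sequenced in 2 libraries; other fields of the labels name the fraction only as nuclear.

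Both libraries belong to 1 group. Replicate 1 started from 1 µg of RNA and replicate 2 from 500 ng. They carry different biosample entries and the same donor entry, so the spread between them may be technical, and age and sex were not collected. No untreated sample was analysed here, so each value is a level at this time point and not a response to Lipid A. With 2 libraries of 1 group there is no comparison of conditions and no test, and every ratio below sets one library against the other.

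MHC class I molecules show peptides from inside the cell to CD8+ T cells at the cell surface. The proteasome cuts cytosolic proteins, and in cells exposed to interferon its catalytic subunits are replaced by immunoproteasome subunits. TAP1 and TAP2 carry the peptides into the endoplasmic reticulum, where tapasin (Tapbp) holds empty class I molecules at the transporter, ERAP1 trims peptides that are too long, and a loaded heavy chain with beta-2-microglobulin (B2m) leaves for the surface. NLRC5 is recruited to class I promoters by a complex of RFX, CREB/ATF and NF-Y proteins, while NF-kB and interferon regulatory factors (IRFs) bind elements beside it. Nuclear RNA holds transcripts that are being made, spliced or kept in the nucleus, and it need not follow the RNA in the cytoplasm.

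The class I promoter elements are shown first because NF-kB is a factor that Toll-like receptor 4 activates and because 3 genes of the group carry its motif. RefSeq promoter windows of GRCm38.p6, read over the 250 bases before each start, were found for 8 of the 10 genes. Tap2 and Nlrc5 had none. The NF-kB motif, searched by its usual consensus on both strands, matched in the windows of B2m, H2-K1 and H2-D1, against 3.75% of all 27025 windows. The IRF core AANNGAAA matched in the windows of the same 3 genes, against 21.6% of all windows. The longer interferon-stimulated element GAAANNGAAA, which contains that core, matched in B2m alone, against 3.04%. In H2-K1 and H2-D1 the NF-kB and IRF matches lie in a stretch of 29 bases at the same spacing, with 28 bases identical and 1 different. In H2-K1 it covers positions -111 to -83 before the start (chr17:34000430-34000458, minus strand), and in H2-D1 positions -171 to -143 (chr17:35262923-35262951, plus strand). Positions count from the RefSeq start. GENCODE starts H2-D1 farther upstream, and there the whole H2-D1 window of 250 bases lies in an exon of its leading transcript, H2-D1-202. The windows of Erap1, Tapbp, Psmb9, Tap1 and Psmb8 also lie wholly in annotated exons. Capitals mark the NF-kB match at the left and the IRF match, here on the reverse strand, at the right.
H2-K1: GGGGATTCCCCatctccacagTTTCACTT
H2-D1: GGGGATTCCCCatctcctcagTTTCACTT

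The window of H2-K1 (chr17:34000348-34000597, minus strand) overlaps no annotated exon. That of B2m is shown without its last base, which lies in the first exon (chr2:122147437-122147685, plus strand). B2m sits on another chromosome from the heavy chain whose protein it joins, and the pair is printed to show which elements both carry. Capitals mark every motif match, and overlapping matches run together.
H2-K1: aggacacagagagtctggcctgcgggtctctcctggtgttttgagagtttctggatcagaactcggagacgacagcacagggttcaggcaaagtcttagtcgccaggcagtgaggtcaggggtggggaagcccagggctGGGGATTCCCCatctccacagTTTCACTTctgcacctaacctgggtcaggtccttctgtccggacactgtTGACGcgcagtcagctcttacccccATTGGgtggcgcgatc
B2m: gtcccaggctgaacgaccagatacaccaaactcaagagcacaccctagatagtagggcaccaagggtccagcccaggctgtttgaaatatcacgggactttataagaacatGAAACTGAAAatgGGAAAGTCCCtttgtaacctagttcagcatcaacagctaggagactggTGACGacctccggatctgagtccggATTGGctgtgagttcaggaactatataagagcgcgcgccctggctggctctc

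In both windows the NF-kB and IRF matches lie farthest from the start, NF-kB outermost in H2-K1 and the IRF match outermost in B2m, followed by the CREB/ATF core TGACG, then the NF-Y box CCAAT read on the other strand. That core was present in 5 of the 8 windows, those of B2m, H2-K1, H2-D1, Tap1 and Psmb9, against 17.9% of all windows. The NF-Y box was present in 6 of 8, those 5 and Tapbp, against 34.5% of all windows. The gamma-activated element TTCNNNGAA matched in Psmb8 alone, against 7.18%. The Erap1 window held none of the 6 motifs. The Tap1 and Psmb9 genes start next to each other on opposite strands, so their windows share most of their bases and their matches are not separate. H2-K1 and H2-D1 are close copies, so the matches of that pair are not separate either. A match describes letters in a window and not binding.

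All 10 genes were detected, here meaning at least 1 TPM in both libraries (TPM, a level scaled to transcript length and to the whole library), against 95.5% of the 9783 protein-coding genes whose mean TPM reached 1. Their mean levels ran from 4.49 TPM for Psmb9 to 1494 TPM for H2-K1, with a median of 50.3 TPM, against a median of 8.0 TPM over those coding genes. The median of the 10 ranks was percentile 88.3 of that set, while Psmb8 and Psmb9 lay below its median. The order of the 10 levels was the same in both libraries, except that H2-K1 and H2-D1 changed places. Of the 9 neighbouring pairs in that order, only H2-K1 and H2-D1 overlapped between libraries, and Tap2 and Erap1 came close, the lowest Tap2 value being 15.5 TPM and the highest Erap1 value 15.2 TPM. In the second set of deposited transcript tables, quantified directly from the reads, Erap1 stood above Tap2 in replicate 2 (9.09 against 7.30 TPM). All these levels cover every transcript of a gene, and the order can differ for coding transcripts. In the first tables the coding Erap1-201 (12.1 and 12.7 TPM) stood above the coding Tap2-201 (3.48 and 2.49 TPM) in both libraries.

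**Figure D1:**
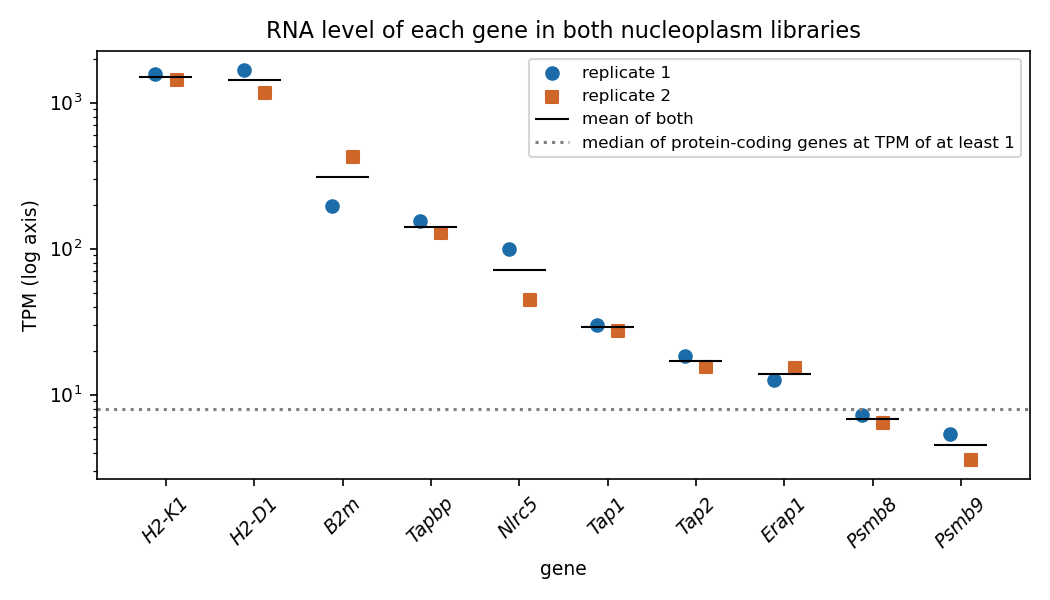
Level of each gene in TPM on a log axis, with 1 point per library, the mean as a line, and the median of coding genes whose mean TPM reached 1 as a dotted line. The heavy chains lie between 1168 and 1665 TPM, B2m and Nlrc5 show the widest gaps between libraries, and Psmb8 and Psmb9 lie under the dotted line.

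The libraries held 15846212 and 14874879 expected reads on annotated genes. The macrophage identity was checked on 8 marker genes, all detected at mean levels from 24.8 to 1880.0 TPM, with summed levels of 2627 TPM in replicate 1 and 3364 TPM in replicate 2. None of 5 dendritic cell, 5 B cell or 5 fibroblast markers was detected. One of 5 T cell markers, Cd4, was detected at 29.4 TPM with Cd3e and Cd3d at 0 reads in both libraries, although the second tables list Cd3d at 4.02 and 3.37 TPM. Of 6 neutrophil markers 2 were detected, S100a9 (1.24 and 1.09 TPM) and Mmp8 (1.78 and 2.74 TPM, 67 and 127 reads). Ngp had 11 and 47 reads and Ly6g 0 reads, and the 6 summed to 3.89 and 7.60 TPM. Of 5 erythroid markers 1 was detected, Alas2 (2.09 and 2.39 TPM), and the 5 summed to 2.18 and 2.43 TPM. In bulk RNA, fewer cells of a type and less RNA per cell cannot be told apart.

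The heavy chains were the most abundant genes of the group. H2-K1 (ENSMUSG00000061232.16, mm10 chr17:33996017-34000347, minus strand) encodes the K molecule and was at 1571 TPM in replicate 1 and 1416 TPM in replicate 2, a mean of 1494 ± 109.5 (SD, n = 2). H2-D1 (ENSMUSG00000073411.11, chr17:35262730-35267499, plus strand) encodes the D molecule and was at 1665 and 1168 TPM, a mean of 1417 ± 351 (SD, n = 2). They ranked at percentiles 99.85 and 99.83 of coding genes. The libraries overlapped between these genes. Over all transcripts H2-D1 was higher in replicate 1 and H2-K1 in replicate 2, with H2-K1 to H2-D1 ratios of 0.944 and 1.21. Transcripts annotated as coding held 36.7% and 26.3% of H2-K1 TPM but 90.4% and 89.1% of H2-D1 TPM. This gene ratio is thus not a ratio of coding RNA. The leading coding transcripts were at 434 and 303 TPM for H2-K1-201 and at 1082 and 889 TPM for H2-D1-202.

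Expected reads of H2-D1 were nearly equal in the libraries, 37200 and 37131, while its TPM differed. The deposited effective length of H2-D1, an average over its transcripts weighted by abundance, was 1305 bases in replicate 1 and 1524 in replicate 2. For H2-K1 the reads were 21938 and 19701 and the effective lengths 816 and 667 bases. A gene's TPM here therefore moves with the number of reads, with their assignment to its transcripts and with the scaling to the whole library. The log2 ratio of TPM, replicate 2 over replicate 1, was -0.51 for H2-D1 and -0.15 for H2-K1. The median over all genes compared was -0.44.

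Reads from these genes can be hard to separate, since class I heavy chains are close copies. The coding sequences of H2-K1-201 (1107 bases) and H2-D1-202 (1086 bases) were identical at 91.99% of 1074 aligned positions, with a longest identical run of 91 bases. The 60 bases in which they differ most are shown because reads over such stretches tell the copies apart. They cover coding positions 492 to 551 of H2-K1-201 (chr17:33999330-33999389) and 501 to 560 of H2-D1-202 (chr17:35263996-35264055), and capitals mark the 15 bases that differ.
H2-K1-201: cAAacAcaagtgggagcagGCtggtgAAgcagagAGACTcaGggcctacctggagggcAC
H2-D1-202: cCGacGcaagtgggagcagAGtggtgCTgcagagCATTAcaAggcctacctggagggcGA

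Over all annotated transcripts, 22.8% of the distinct 31-base words of H2-K1 and 26.9% of those of H2-D1 also occur in another gene. The pair shares 358 words, which are 11.1% of those of H2-K1 and 13.8% of those of H2-D1. With words of 75 bases the shared part was 3.10% and 5.56%. B2m shared no word of either length with another gene. The split of reads between H2-K1, H2-D1 and the other heavy chains is therefore uncertain. Tapbp shared 26.9% of its 31-base words and 18.6% of its 75-base words with other genes, and the other genes of the group, B2m aside, from 0.579% to 14.3% and from 0.0462% to 10.4%.

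B2m (ENSMUSG00000060802.8, chr2:122147686-122153083, plus strand), the light chain that every class I heavy chain needs, was at 196 TPM in replicate 1 and 420.4 TPM in replicate 2, a mean of 308 ± 158 (SD, n = 2). Replicate 2 was the high library, from 2121 expected reads in replicate 1 to 5744 in replicate 2. The summed heavy chain level (H2-K1 plus H2-D1) was 16.5 times that of B2m in replicate 1 and 6.15 times in replicate 2. In the second tables these ratios were 12.8 and 5.51. Over all transcripts, the excess of heavy chain over light chain RNA was present in both libraries, and its size differed between them. The heavy chain sum includes transcripts not annotated as coding, while B2m has 1 transcript, a coding one. These are thus not ratios of coding RNA. The coding H2-D1-202 alone, at 1082 and 889 TPM, stood above B2m in both libraries. B2m lies inside the span of Patl2 on the opposite strand, shares no exonic base with it, and Patl2 had 11 reads in each library.

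The transporter genes and tapasin stood at middle to high levels. Tapbp (ENSMUSG00000024308.15, chr17:33915899-33929292, plus strand) was at 155 and 128 TPM, a mean of 142 ± 19.0 (SD, n = 2). Tap1 (ENSMUSG00000037321.17, chr17:34187553-34197225, plus strand) was at 30.2 and 27.5 TPM, a mean of 28.8 ± 1.93 (SD, n = 2). Tap2 (ENSMUSG00000024339.12, chr17:34203527-34216321, plus strand) was at 18.4 and 15.5 TPM, a mean of 17.0 ± 2.06 (SD, n = 2). Each of the 3 was a little higher in replicate 1 on the TPM scale, and no library of one overlapped those of another. Their log2 ratios of TPM, replicate 2 over replicate 1, were -0.275 for Tapbp, -0.137 for Tap1 and -0.248 for Tap2. The median over all genes compared was lower, at -0.44. TAP works as a pair of 1 TAP1 and 1 TAP2 chain, and the Tap1 to Tap2 ratio of TPM over all transcripts was 1.64 and 1.77. Transcripts annotated as coding held 81.3% and 81.8% of Tap1 TPM but 18.9% and 17.9% of Tap2 TPM. The gene ratio is thus not a ratio of coding RNA. The Tapbp to Tap1 ratio was 5.14 and 4.67.

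The immunoproteasome genes were the lowest of the group. Psmb8 (ENSMUSG00000024338.15, chr17:34197721-34201454, plus strand), the inducible counterpart of Psmb5, was at 7.23 and 6.38 TPM from 119 and 135 expected reads, a mean of 6.81 ± 0.601 (SD, n = 2). Psmb9 (ENSMUSG00000096727.3, chr17:34181987-34187764, minus strand), the counterpart of Psmb6, was at 5.38 and 3.59 TPM from 97 and 92 reads, a mean of 4.49 ± 1.27 (SD, n = 2). Over all transcripts Psmb8 was above Psmb9 in both libraries. The coding Psmb9-204, at 2.23 and 2.56 TPM, was above the coding Psmb8-203 (1.57 and 1.52 TPM) and Psmb8-201 (0 and 0.75 TPM). They ranked at percentiles 45.3 and 32.7 of coding genes.

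Set against the constitutive subunits they replace, the pair differed. Psmb8 was at 1.47 and 1.17 times the TPM of Psmb5, which had 55 and 79 reads. Psmb9 was at 0.0579 and 0.0783 times that of Psmb6, which stood at 92.9 and 45.9 TPM. The other inducible subunit, Psmb10, was at 1.64 and 1.75 times the level of its counterpart Psmb7; both are named for that pairing, after their values were seen. In the second tables the ratios were 1.46 and 1.55 for Psmb8, 0.0536 and 0.0786 for Psmb9, and 1.55 and 2.54 for Psmb10. So, over all transcripts, Psmb9 lay well below its counterpart while Psmb8 and Psmb10 lay above theirs, in both libraries and both kinds of table. Transcripts annotated as coding held 21.7% and 35.6% of Psmb8 TPM, so its gene ratio is not a ratio of coding RNA. The coding Psmb8-203 and Psmb8-201 were at 1.57 and 0 TPM in replicate 1 and 1.52 and 0.75 TPM in replicate 2. Psmb5 over all its transcripts was at 4.92 and 5.46 TPM. The coding share of the counterparts was not read.

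The 4 genes Psmb9, Tap1, Psmb8 and Tap2 lie in this order within 34.3 kb of the MHC region of chromosome 17, and Tapbp and H2-D1 bound a region of 1.35 Mb that also holds H2-K1. Psmb9 and Tap1 are on opposite strands and share 212 exonic bases at their starts, and 495 bases separate Tap1 from Psmb8. The neighbours did not share a level: the Tap1 to Psmb9 ratio of TPM was 5.61 and 7.65. Whether the counting used strand is not stated in the labels or tables, and without it reads in overlaps on opposite strands cannot be told apart. Those overlaps were 834 exonic bases between Erap1 and Cast (1014 and 889 reads), 904 between Tapbp and Gm19412 (21 and 5 reads), 533 between Tap2 and Gm15821 (5 reads in each library), 498 between Psmb8 and Gm20496 (0 reads) and 78 between Nlrc5 and 9330175E14Rik (87 and 80 reads). Gm20496 also shares 165 exonic bases with Tap2, Tapbp shares 149 on the same strand with Zbtb22 (266 and 269 reads), and Mir7072 lies inside Nlrc5 with no exonic base shared.

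Erap1 (ENSMUSG00000021583.7, chr13:74639568-74693201, plus strand), which trims peptides in the endoplasmic reticulum to the length that class I molecules hold, was at 12.6 and 15.2 TPM, a mean of 13.9 ± 1.83 (SD, n = 2). Replicate 2 was the higher library, from 1144 and 1467 reads. Nlrc5 (ENSMUSG00000074151.13, chr8:94434356-94527272, plus strand), the class I transactivator, was at 99.2 TPM in replicate 1 and 44.3 TPM in replicate 2, a mean of 71.8 ± 38.9 (SD, n = 2). Replicate 1 was the high library for Nlrc5, with 5526 against 2825 reads. Both are long genes, spanning 53.6 kb and 92.9 kb, against 3.73 kb for Psmb8, the shortest of the 10. Exons of any transcript cover 13.6% of the Erap1 span and 9.14% of the Nlrc5 span, against 90.6% of the Psmb8 span.

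The libraries were then compared gene by gene from expected reads scaled by TMM (trimmed mean of M values, a factor that centres most genes on no difference). A gene was called different between libraries when this ratio passed 2-fold, over the 10444 genes with a mean of at least 50 reads, and 9.01% of those were called. Of the 10 genes B2m was called, being 2.86-fold higher in replicate 2 (log2 ratio 1.52, percentile 99.0 of all genes compared). Over all genes 5.42% were called higher and 3.59% lower in replicate 2. One in 10 is near the background and is not a result about the group. Nlrc5 came next at 1.85-fold lower in replicate 2 (log2 ratio -0.89, percentile 5.19). B2m and Nlrc5 were the genes beyond 1.5-fold, where 29.6% of all genes were called, and also those beyond 2-fold by the ratio of TPM, where 17.0% were called.

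The other 8 genes had log2 ratios from -0.08 for H2-K1 to 0.44 for Erap1. The median of the 10 was 0.14, against -0.02 over all genes compared. By the sign of the ratio 8 genes were above 0 and 2, H2-K1 and Nlrc5, below it; with DESeq2 size factors over all genes, which came out at 1 for both libraries and so leave the counts unscaled, H2-D1 and Psmb9 were below 0 as well, on the TPM scale only B2m and Erap1 were above 0, and in the second tables all but Nlrc5 were. The TPM scale itself moved the median of all genes to -0.44, and relative to that median H2-D1, Psmb9 and Nlrc5 were below and the other 7 genes above. B2m stayed the highest of the 10 and Nlrc5 the lowest on all 3 scales, with log2 ratios from the second tables of 1.45 and -0.79.

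**Figure D2:**
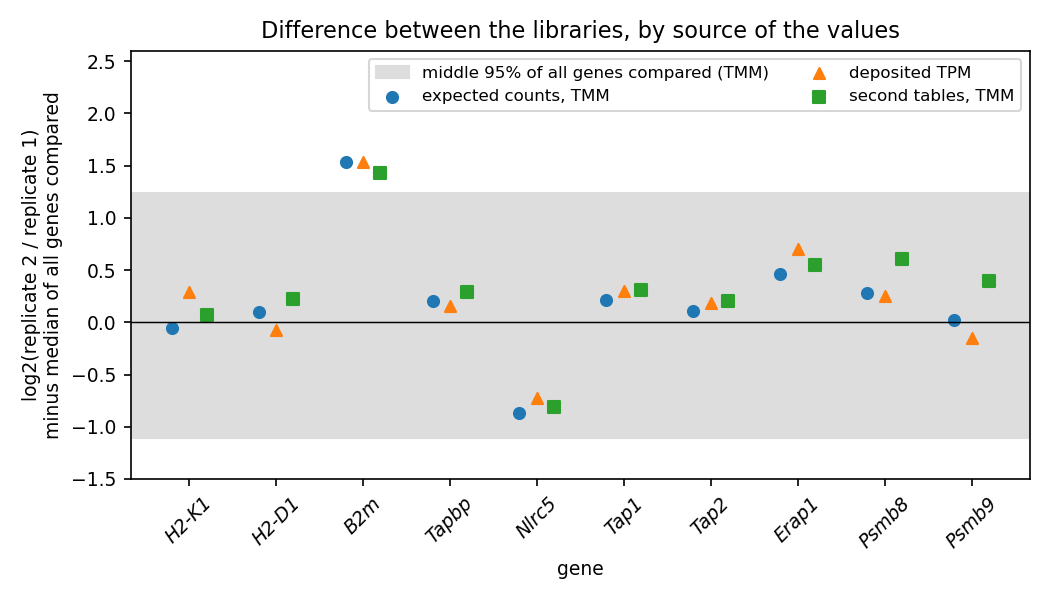
Log2 ratio of replicate 2 to replicate 1 for each gene, less the median over all genes compared, from TMM-scaled expected counts, deposited TPM and the second tables; the grey band holds the middle 95% of all genes compared by TMM. B2m lies above the band by all 3 sources, Nlrc5 is the lowest gene but inside the band, and the other 8 genes lie within 0.71 of 0.

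Gene span moved with the library ratio over all genes, and these values stand beside the B2m and Nlrc5 ratios. Among coding genes the median log2 ratio was 0.24 for the 1747 genes spanning under 10 kb, 0.10 for the 4587 genes from 10 to 50 kb and -0.21 for the 2664 genes of 50 kb or more. The rank correlation of span with the ratio was -0.32 over 8998 coding genes, which share the same 2 libraries. Over the 10 genes it was -0.09. B2m, at 5.40 kb, belongs to the short class, in which 14.7% of genes passed 2-fold, and Nlrc5 to the long class, in which 3.75% did. Starting RNA differed between the libraries too, and the part of either in these ratios was not tested.

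Transcript shares were read from the percentage of a gene's TPM that the first transcript tables give each isoform. The leading transcript was the same in both libraries for all 10 genes, and in both kinds of table. It was a coding transcript in 7 genes and a transcript annotated as retaining an intron in 3: H2-K1, Tap2 and Psmb8.

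In H2-K1 the retained-intron transcript H2-K1-215, only 457 bases long, held 32.3% of TPM in replicate 1 and 54.7% in replicate 2, and the coding H2-K1-201 held 27.6% and 21.4%. By reads the order was the other way: H2-K1-201 held 47.1% and 45.3% of expected reads and H2-K1-215 held 9.05% and 20.7%. H2-K1 was the single gene of the 10 whose leading transcript differed between TPM and reads. Over its 7 transcripts of this class, the retained-intron share of H2-K1 was 59.1% and 70.8% of TPM, and 39.9% and 46.0% of reads. H2-D1, its close copy, was led by the coding H2-D1-202 with 65.0% and 76.1%, followed by the coding H2-D1-203 with 23.5% and 11.0%, and its retained-intron share was 9.56% and 10.9%. The copies thus differed in transcript class by more than their libraries did.

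Tap2 was led by the retained-intron transcript Tap2-202, with 81.1% and 82.1% of TPM, and the coding Tap2-201 held 18.9% and 16.0%. Tap1 was led by the coding Tap1-206, with 56.3% and 55.4%, and Tap1-201, also coding, held 23.6% and 26.4%. The retained-intron share was 81.6% ± 0.68 (SD, n = 2) in Tap2 and 18.5% ± 0.36 (SD, n = 2) in Tap1, so the chains of one transporter stood far apart in this measure. Tapbp was led by Tapbp-206 with 79.5% and 84.7%, and retained introns held 4.60% and 3.15% of its TPM.

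Psmb8 was led by the retained-intron transcript Psmb8-205 with 60.5% and 55.4%, ahead of the coding Psmb8-203 with 21.7% and 23.8%. Its retained-intron share was 78.3% and 64.4%, from 119 and 135 reads in all. In Psmb9 the coding Psmb9-204 led with 41.5% and 71.4%, and the retained-intron transcript Psmb9-201 held 15.0% and 11.5%. Psmb9 had the fewest reads of the group, 97 and 92, and the widest spread of a leading transcript. Erap1 was mainly Erap1-201, with 95.9% and 83.4% (63.5% and 64.8% in the second tables), and B2m has 1 annotated transcript, B2m-201.

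Nlrc5 had the most divided set, with 4 transcripts at 10% or more in both libraries. Nlrc5-207, the leading coding transcript, held 35.4% and 30.8%, the retained-intron Nlrc5-203 held 17.4% and 25.1%, and the processed transcripts Nlrc5-208 and Nlrc5-209 held 16.1% and 13.0%, and 14.9% and 11.0%. By reads, Nlrc5-207 held 80.0% and 74.2%, since it is far longer than the other 3. The retained-intron share of Nlrc5 was 23.7% of TPM in the library with the high level and 36.3% in the other, and 13.8% and 26.2% in the second tables.

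Across the 9 genes that have such a transcript, the median retained-intron share was 26.7% of TPM. It was 26.8% over 4397 coding genes that have one and reach a mean TPM of 5, with quartiles of 13.9% and 41.0%. Shares of at least 50% were seen in 3 of the 9 and in 14.9% of those genes. H2-K1, Psmb8 and Tap2 ranked at percentiles 94.6, 97.0 and 98.9 of that set, while Erap1, Tapbp and H2-D1 ranked at 6.05, 6.55 and 16.8. The median of the group sat at the middle of coding genes, and single genes lay at both ends. That median is the share of Psmb9, whose mean of 4.49 TPM is under the limit of 5 set for the coding genes.

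**Figure D3:**
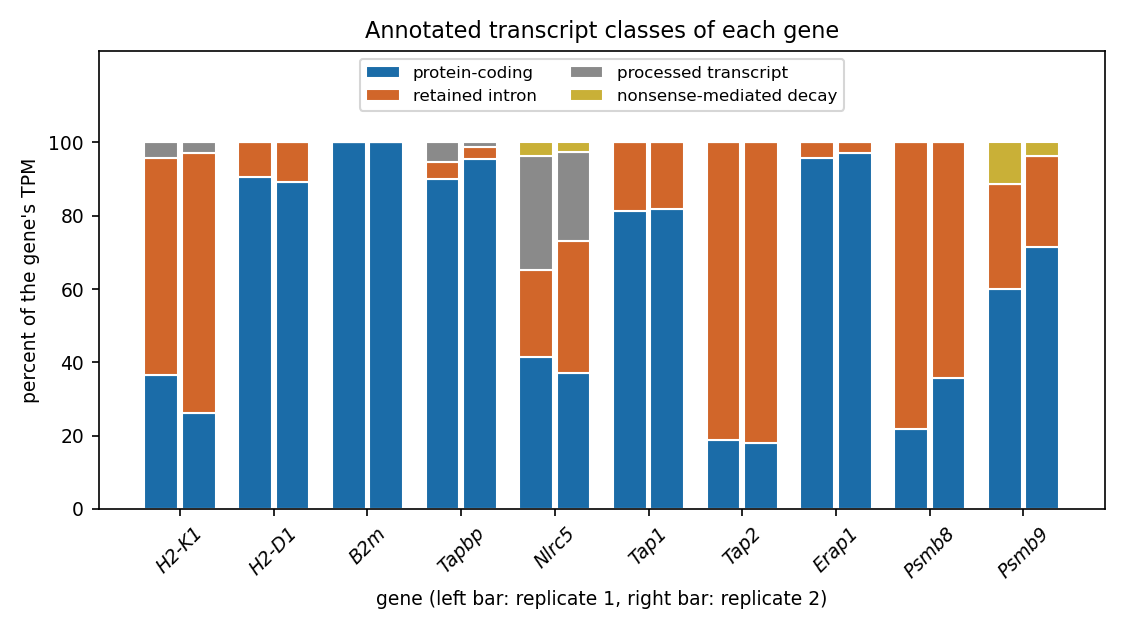
Percent of each gene's TPM by annotated transcript class, with replicate 1 as the left and replicate 2 as the right bar. Retained-intron transcripts take 59.1% or more in both libraries for H2-K1, Tap2 and Psmb8 and 10.9% or less for H2-D1, Tapbp and Erap1.

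Other genes of the pathway were read from 8 lists. Genes in them were called by the same 2-fold rule, by which 9.01% of all genes compared were called. Among 17 other class I heavy chain genes, which include the Q, T and M genes, 10 were detected, and the median level was 2.53 TPM. The highest were H2-K2, annotated as a transcribed pseudogene, at 142 and 54.9 TPM, H2-Q4 at 116 and 73.6 TPM, and H2-T23, which encodes the Qa-1 molecule, at 78.3 and 77.3 TPM. The lowest, H2-Q1, H2-Q2, H2-T3, H2-M5 and H2-M9, had 0 reads in both libraries. All of these lay far under H2-K1 and H2-D1, and the reads they share with those genes leave their own levels uncertain. Of 11 with a ratio, 1 was called, H2-M2, lower in replicate 2 (95 and 20 reads).

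Of 4 class I-like molecules that also bind B2m, all were detected: Fcgrt, the neonatal Fc receptor, at 41.5 TPM, Hfe, a regulator of iron uptake, at 9.42, Cd1d1, which presents lipids, at 4.78, and Mr1, which presents vitamin B metabolites, at 3.54 (means of both libraries). All 4 TMM ratios were above 0, as was that of B2m. On the TPM scale, where the median of all genes was -0.44, Hfe lay below 0. Mr1 was called higher in replicate 2 (99 and 232 reads, log2 ratio 1.31), but in the second tables its log2 ratio was 0.50.

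Chaperones and quality control factors of the endoplasmic reticulum were detected in 10 of 10 genes with a median of 31.1 TPM. Hspa5, the chaperone BiP, was at 248 and 181 TPM, Calr (calreticulin) at 167 and 229 TPM and Canx (calnexin) at 112 and 136 TPM. These 3 exceeded Tap1 and Tap2 in both libraries, and the lowest, Tapbpl, the tapasin relative that edits peptides, was at 2.28 TPM against 142 TPM for Tapbp (means). Of 9 with a ratio none was called, and all 9 were above 0 by TMM, with a median log2 ratio of 0.40. On the TPM scale, where the median of all genes was -0.44, Hspa5, Uggt1, Tapbpl, Sec61a1 and Ganab lay below 0. In the second tables the log2 ratios of Calr and Bcap31, a transmembrane chaperone named after its values were seen, were 1.06 and 1.15, both beyond 2-fold.

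Proteasome counterparts and activators were detected in 9 of 9 genes with a median of 14.5 TPM, led by Psmb6 at a mean of 69.4 TPM, Psme2, a subunit of the interferon-inducible activator PA28, at 70.3 and 33.1 TPM, and Psme4, the activator PA200, at 43.3 and 23.7 TPM. Psmb5 was the lowest, with a mean of 5.19 TPM. None of the 9 was called. The other 11 subunits of the 20S core were all detected at a median of 6.28 TPM, with Psma3 (31.3), Psmb4 (14.4) and Psma1 (10.3) the highest mean TPM and Psma2 (2.24) the lowest. Psmb8 and Psmb9, at 6.81 and 4.49 TPM, were thus within the range of these core subunits. Psma5 was called higher in replicate 2 (63 and 120 reads, log2 ratio 1.01), with 0.85 in the second tables.

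Of 8 cytosolic and endosomal peptidases 7 were detected, with a median of 16.2 TPM. Lnpep (the endosomal insulin-regulated aminopeptidase) at 46.7, Npepps (a cytosolic aminopeptidase) at 45.8 and Tpp2 (tripeptidyl peptidase II) at 28.1 mean TPM each exceeded Erap1 at 13.9. Thop1, a cytosolic peptidase that breaks down class I peptides, was the lowest at 1.12 TPM. None of the 7 with a ratio was called.

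Among 15 genes for the class I promoter complex and its inducers 14 were detected, with a median of 37.7 TPM. Irf1, an interferon regulatory factor, was far the highest at 1094 TPM in replicate 1 and 395 TPM in replicate 2. Stat2, which carries interferon signals, followed at a mean of 76.6 TPM, near Nlrc5 at 71.8 TPM, and Rfxap of the RFX complex was the lowest at 0.875 TPM. Of the 14 with a ratio 13 were below 0, with a median log2 ratio of -0.41; in the second tables Rfxank was above 0. Irf1 (26253 and 11910 reads, log2 ratio -1.06) and Nfkb1, the p50 subunit of NF-kB (3687 and 1528 reads, log2 ratio -1.19), were called lower in replicate 2. Nfyb (55 and 114 reads, log2 ratio 1.13) was called higher. Over all genes compared 3.59% were called lower and 5.42% higher. In the second tables the log2 ratios of Irf1, Nfkb1 and Nfyb were -1.0, -1.07 and 0.90. On this TMM scale, where the median of all genes was -0.02, Nlrc5, at -0.89, lay on the same side as most of the list. Of the 10 genes 8 lay on the other side, but Psmb9 (0.006), H2-D1 (0.078) and Tap2 (0.093) were near 0. By the ratio of TPM, where the median of all genes was -0.44, only B2m and Erap1 were above 0.

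Interferon receptors and their kinases were detected in 7 of 7 genes with a median of 31.5 TPM, the highest being Ifngr1 (87.8), Ifnar2 (52.1) and Ifnar1 (50.6) and the lowest Jak2 (9.17), as mean TPM. None was called.

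**Figure D4:**
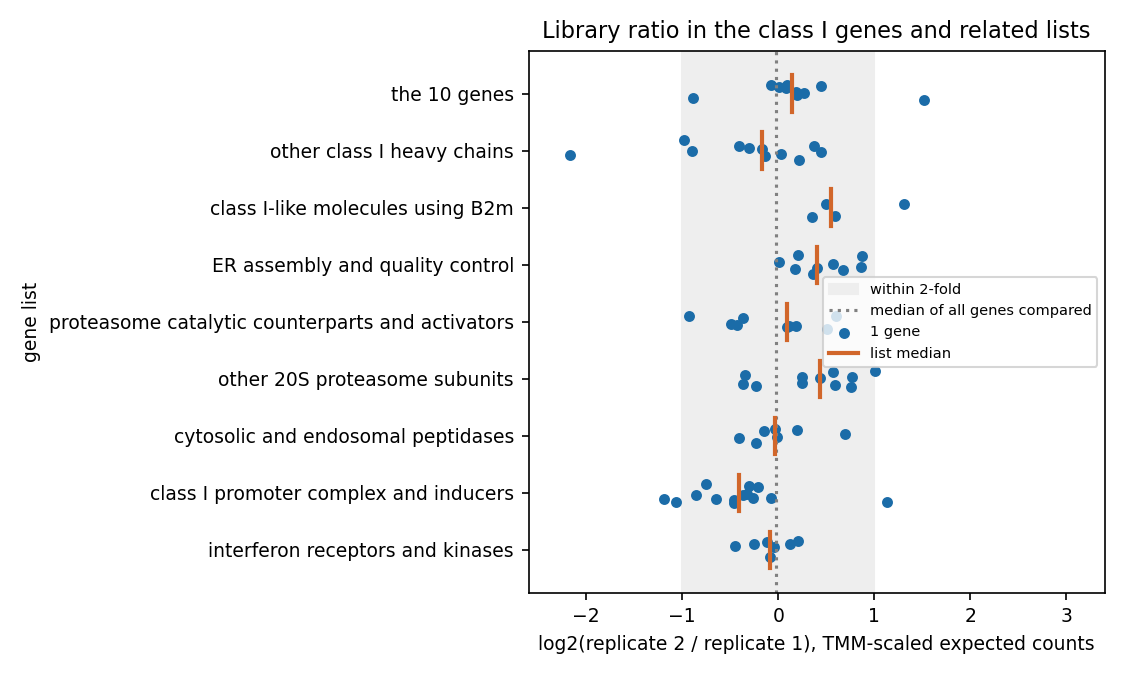
Log2 ratio of replicate 2 to replicate 1 (TMM-scaled expected counts) for the 10 genes and 8 related lists, with 1 point per gene with a mean of at least 50 reads, the list median in orange and the range within 2-fold in grey. The promoter complex and inducers have the lowest median, -0.41, and the class I-like molecules the highest, 0.54.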

How the data were processed

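Expected counts, TPM and FPKM per gene, and expected counts, TPM and the percent of a gene's TPM per transcript, are as deposited; per the deposited text files they come from a transcriptome alignment on mm10 with GENCODE M21. A second set of deposited tables gives estimated counts and TPM per transcript from the reads directly, summed here per gene. Effective lengths in bases are the authors' own. Software, strand setting and read length: not given in the sources used here. Features without a gene name held 1.19% and 0.213% of expected counts and were left out.

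Expected counts were rounded where reads are printed. Ratios used TMM factors (edgeR 4.0.16, genes with a mean of at least 10 counts; R 4.3.3); DESeq2 1.42.0 size factors, library size, TPM, FPKM and the second tables were alternatives. The scaling was checked on simulated data. Tables, shared words and motifs used Python 3.11.15. Promoters are RefSeq's, GRCm38.p6, and transcript sequences and gene coordinates those of GENCODE M21. Credibility bounds of TPM were not used.

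The genes, related lists and markers were chosen with earlier results of these data known. Of each related list the 3 highest genes, the lowest and any beyond 2-fold are named; of each gene, its leading transcript and any at 10% or more in both libraries. One gene that this rule would name is not reported here.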

Additional observations from a re-analysis of the deposited data

How the results depend on the processing

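With 2 libraries of 1 group no test was run, and depth limits Psmb8 and Psmb9 most. No paired analysis was possible because there is 1 group. All 10 genes were detected at TPM limits of 0.5 and 1, 9 at a limit of 5 and 8 at 10. The median level of 50.3 TPM became 206.0 when TPM was rescaled to coding genes off the mitochondrial genome, 23.1 in the second tables and 59.6 in FPKM; with 1 library left out it ran from 35.9 to 64.7. The median percentile of 88.3 became 94.8 with no filter on low values, 89.4 among all annotated genes and 83.0 in the second tables, and ran from 87.5 to 88.3 with 1 library left out. The median log2 ratio of 0.14 became -0.21 as a ratio of TPM, where the median of all genes was -0.44, and 0.33 in the second tables; library size alone gave 0.15, and DESeq2 size factors 0.06 over all genes (factors of 1 in both libraries, so no scaling) and 0.16 over genes with at least 50 counts. The count beyond 2-fold rose from 1 to 2 at 1.5-fold and to 2 as a ratio of TPM, with Nlrc5 the added gene each time; it was 1 under the other 4 alternatives. The leading transcript was shared by the libraries in 10 genes in each table and by counts. The median retained-intron share of 26.7% became 22.8% in the second tables and 17.9% as a share of counts, and ran from 23.7% to 24.8% with 1 library left out. For each change the cause was not tested.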
